A study of Homo sapiens with 9 samples.

Results

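SW620 is an established human cell line that derives from a lymph node metastasis of colon cancer. Its cells, of wild-type genotype per the labels, grew as floating spheres on low-attachment plastic in a serum-free medium with insulin, basic FGF and EGF. Here 3 libraries of cells given 120 µM dihydrostreptomycin (DSM) for 48 h were set against 3 libraries of untreated cells, for which the labels name no vehicle. These 6 of the 9 libraries of the series were taken by their labelled treatment, and the other 3 received 120 µM streptomycin (SM) for 48 h. The design text calls this concentration an EC50 and names no response. The groups carry no other difference in the labels, and the design text calls the replicates biological. All libraries come from 1 line, so p-values of the main fit describe the spread between these cultures that remains once the replicate number is fitted. Of 28307 genes in the count table, the 15508 with at least 10 counts in at least 3 of the 6 libraries were tested, and the results below are across these genes.

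Streptomycin, an aminoglycoside, acts on the small ribosomal subunit of bacteria and makes it misread messenger RNA. DSM carries an alcohol where the streptose of SM carries an aldehyde, and it is an antibiotic too. Human mitochondria translate with ribosomes of bacterial descent, and aminoglycosides taken up by cells are known to collect in lysosomes. An aldehyde can react with thiols and amines, and NRF2 is the transcription factor through which cells answer reactive electrophiles: its repressor KEAP1 senses them through cysteines and then releases NRF2 to genes that carry antioxidant response elements.

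No gene was called between DSM and untreated cells. In the quasi-likelihood fit of edgeR with the replicate number as a block, 0 of 15508 genes passed an adjusted p of 0.05 (0%), and the smallest adjusted p was 0.504. At an unadjusted p under 0.05 there were 646 genes (4.17%), 296 higher with DSM (1.91%) and 350 lower (2.26%). DESeq2 with the same block also called 0 genes, with 266 at an unadjusted p under 0.05, and limma voom called 0, with 678. The same fit called 423 genes for SM against untreated (2.73%), so it made calls at this number of libraries. The untreated and SM libraries shared in that fit also set the spread against which DSM was tested. When only the 6 untreated and DSM libraries entered the fit, 4 genes passed (0.0258%), and 1272 had an unadjusted p under 0.05 (8.2%). Those 4 genes, described below, differed by at most 0.19 on the log2 scale.

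**Figure D1:**
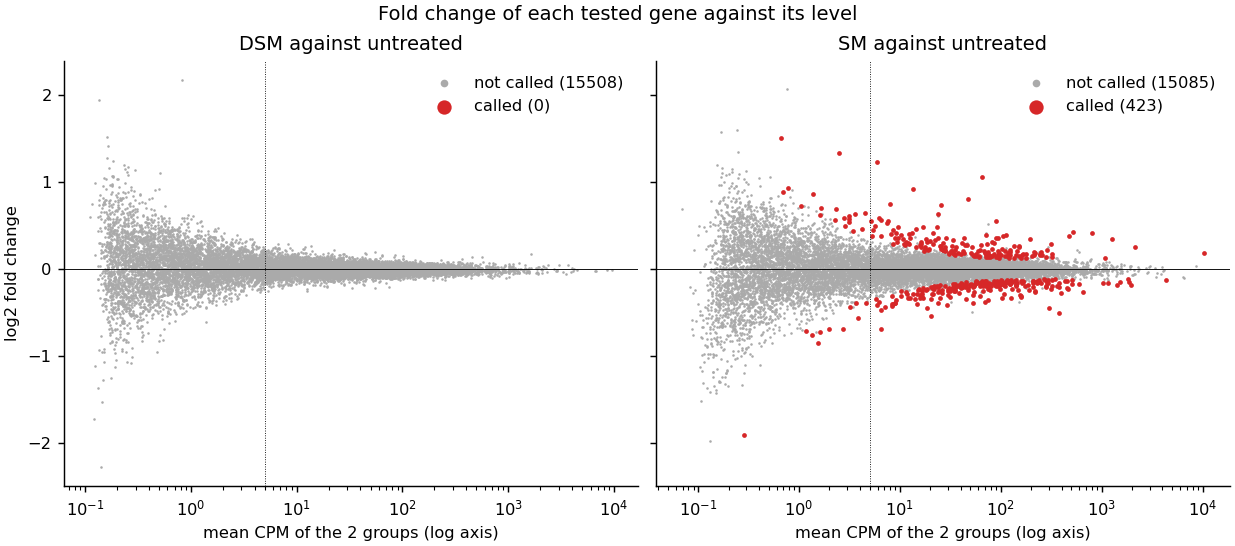
Each point is a tested gene, with its mean CPM on a log axis against its log2 fold change for DSM (left) and SM (right) against untreated, and the dotted line at 5 CPM. The left panel holds 0 called genes and narrows to a thin band above 5 CPM, whereas the right panel holds 423 called genes.

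The 6 libraries held 52602300 to 65562227 counts and 19211 to 19448 detected genes each, and their 10 most abundant genes took 5.41% to 5.83% of counts. Libraries with the same replicate number resembled each other more than libraries of the same group. Over the 10296 genes with a mean of at least 5 CPM (counts scaled to library size), a DSM library differed from its same-numbered untreated library by a root mean square of 0.0764 to 0.0955 on the log2 scale. Among untreated libraries the difference was 0.116 to 0.239, and among DSM libraries 0.137 to 0.221. An SM library differed from its same-numbered untreated library by 0.104 to 0.136. Of the sum of squares over the 6 libraries, 86.9% went with the replicate number, 5.12% with the group and 8.03% with neither. Spread between libraries also enters the share of the group, so the 5.12% cannot be read as an effect of DSM alone. In the SM and untreated libraries the group took 11.9%, and 8.64% went with neither. Replicate 1 stood apart from replicates 2 and 3 in both groups, and what a number shares is not stated in the labels.

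General epithelial markers were present. KRT8 and KRT18, the keratins of simple epithelium, lay at 6618 and 3574 CPM in untreated cells, and EPCAM at 437 CPM. Of the 19 genes of the epithelial list 17 were tested, and levels of other epithelial genes are not reported here. Summed markers of other cell types were low in both groups. The 6 fibroblast genes summed to 15.6 to 26.9 CPM in untreated and 16.3 to 25.8 CPM in DSM libraries, with 2 of the genes at 0 counts throughout each group. The 5 leukocyte genes summed to 20.8 to 25.4 and 22.9 to 28.7 CPM, with 1 of them at 0 throughout the DSM libraries, and the 5 endothelial genes to 5.04 to 6.45 and 4.66 to 6.19 CPM, with 1 and 2 of them at 0. In RNA from whole cultures, fewer cells of a type and less RNA per cell cannot be told apart.

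The size of an effect that these data still allow was read from the 95% interval of each gene's log2 fold change. The median interval reached 0.12 to either side on the log2 scale, a 1.09-fold difference, while the median absolute log2 fold change was 0.045. The whole interval lay within 1.5-fold of no change for 12559 genes (81.0%) and within 2-fold for 14313 (92.3%). A narrower limit, called the 25% limit below, allows a rise of 25% or a fall of 20%, which is 0.32 to either side on the log2 scale, and 10726 genes (69.2%) lay within it. For the 10296 genes of at least 5 CPM these shares were 99.99% within 1.5-fold and 98.6% within the 25% limit, and all 10296 lay within 2-fold. When the intervals were widened by Bonferroni to hold for all 15508 genes jointly at 95%, 10275 of those 10296 genes still lay within 2-fold and 9634 within 1.5-fold. No gene of at least 5 CPM had a DSM log2 fold change beyond 1.5-fold, and 8 had with SM.

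The bound depended on the level of the gene. Among the 2345 genes of 100 CPM or more, the median interval reached 0.069 to either side and 2340 genes lay within the 25% limit. From 20 to 100 CPM it was 0.089, with 5174 of 5182 genes within the 25% limit, and from 5 to 20 CPM 0.15, with 2637 of 2769. From 1 to 5 CPM the median interval reached 0.30, and 2011 of 2287 genes lay within 1.5-fold. Below 1 CPM it reached 0.69, a 1.61-fold difference, and 1193 of 2925 genes had intervals that passed 2-fold. For those 1193 genes the intervals do not exclude a change of 2-fold.

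**Figure D2:**
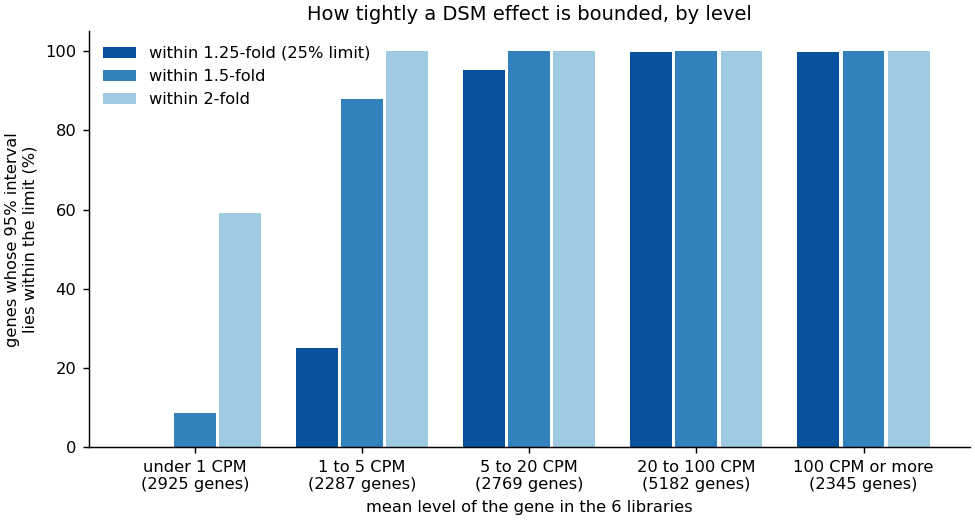
Bars give the percentage of genes, in 5 classes of mean CPM over the 6 libraries, whose 95% interval of the DSM log2 fold change lies within the 25% limit, 1.5-fold or 2-fold of no change. From 5 CPM upwards at least 95.2% of genes lie within the 25% limit, against 0% below 1 CPM.

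A fitted change above 2-fold was found for 34 genes, 21 higher and 13 lower, none of which exceeded 1.34 CPM in either group mean. GDPD2 had the lowest value, with 16, 13 and 14 counts in untreated replicates 1 to 3 and 2, 0 and 6 with DSM (adjusted p = 0.999). POLR2J3, 1 of several near-identical genes for an RNA polymerase II subunit, had the highest value, with 8, 13 and 32 counts without and 17, 182 and 15 with DSM (adjusted p = 0.999). DSM replicate 2 alone was high, as was SM replicate 3 with 180 counts. Reads of such copies may be shared among them, and the part of that in this value was not tested. Among genes of at least 5 CPM the largest values were those of TSPAN8, a tetraspanin gene, at 0.29 (SE 0.080), and the long non-coding LINC01684 at 0.28 (SE 0.081), both with adjusted p = 0.999. TSPAN8 lay at 9.64, 6.11 and 6.45 CPM without and 11.9, 6.58 and 8.69 CPM with DSM, so that its groups overlapped. The 4 genes of this paragraph were chosen by the size of their values.

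The 5 most abundant genes lay close to 0. FTH1, the ferritin heavy chain gene, had the most counts and a DSM log2 fold change of -0.02 (95% interval -0.10 to 0.06). EEF1A1, a translation elongation factor, was at -0.01 (-0.09 to 0.07), and the actin genes ACTB and ACTG1 at -0.02 (-0.09 to 0.05) and -0.01 (-0.08 to 0.06). KRT8 was at -0.02 (-0.09 to 0.05). Among genes of at least 5 CPM in untreated cells, the main fit gave RN7SL2, a signal recognition particle RNA, the widest interval (-0.42 to 0.80). Also among the widest were the metallothionein gene MT1E (-0.34 to 0.43) and the channel gene BEST1 (-0.35 to 0.33). The stress genes DDIT4 (-0.58 to 0.14) and CHAC1 (-0.44 to 0.18) were too. The SM libraries also enter the spread of that fit. With only untreated and DSM libraries fitted, all of these intervals were narrower, at -0.07 to 0.06 for BEST1 and -0.14 to 0.24 for MT1E. There the intervals of DDIT4 (-0.33 to -0.13), CHAC1 (-0.27 to -0.0052) and RN7SL2 (0.05 to 0.32) excluded 0. None of these genes passed there (edgeR adjusted p of at least 0.100).

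NRF2 targets showed no called change with DSM, and their intervals lay close to 0. Of 38 tested members of the list, 0 were called, 21 had a positive and 17 a negative fold change, and the median was 0.0077 against -0.00059 over all genes. The intervals of 35 members lay within the 25% limit, and AKR1B10, NMRAL2P and TRIM16L were the exceptions. With SM 28 of the 38 passed as higher and 0 as lower in the same fit, against 1.21% higher over all genes. In the direct test of SM against DSM, which called 606 genes (3.91%), 28 of the 38 were higher with SM, against 1.78% higher and 2.13% lower over all genes. The 2 comparisons of each compound with untreated cells share the untreated libraries.

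NRF2 acts through antioxidant response elements, and 2 promoters that hold the letters of its core are shown because these genes rose with SM and were bounded near 0 with DSM. Each stretch holds the 250 bases before the RefSeq start on GRCh38.p14, printed on the strand of the gene, with the letters of the element's core, TGACNNNGC or GCNNNGTCA on the other strand, in capitals. The core was found in 8 of 27 NRF2 list genes with a RefSeq promoter entry (29.6%), in 15.8% of 11818 tested genes and in 13.2% of 27305 genes. GCLM lies at chr1:93909431-93909680 on the minus strand, and its core starts 34 bases before the start. GPX2 lies at chr14:64942746-64942995 on the minus strand, with its core at 122 bases.
GCLM: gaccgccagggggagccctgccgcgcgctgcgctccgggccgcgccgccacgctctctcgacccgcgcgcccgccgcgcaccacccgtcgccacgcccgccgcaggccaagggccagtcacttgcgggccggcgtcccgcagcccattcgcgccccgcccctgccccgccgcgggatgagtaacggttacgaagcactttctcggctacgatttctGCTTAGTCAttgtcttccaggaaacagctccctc
GPX2: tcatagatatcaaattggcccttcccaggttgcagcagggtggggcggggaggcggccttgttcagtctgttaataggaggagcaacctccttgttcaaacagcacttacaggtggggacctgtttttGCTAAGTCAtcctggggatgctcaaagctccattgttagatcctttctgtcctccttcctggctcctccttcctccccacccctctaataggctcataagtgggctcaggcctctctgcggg

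GCLM, the regulatory subunit of the enzyme that begins glutathione synthesis, lay at 67.8, 79.4 and 73.4 CPM in untreated replicates 1 to 3 and at 65.9, 76.9 and 70.6 CPM with DSM. The groups overlapped, and the log2 fold change was -0.05 (SE 0.037, 95% interval -0.13 to 0.03). With SM it lay at 79.0, 102 and 92.7 CPM, and SM exceeded DSM by 0.36 on the log2 scale (SE 0.037, edgeR adjusted p = 2.49e-06). GPX2, the gastrointestinal glutathione peroxidase, lay at 279, 283 and 285 CPM without and 286, 289 and 293 CPM with DSM. All 3 DSM libraries of GPX2 were above all untreated ones, as in 2.16% of genes, but the log2 difference of 0.04 (SE 0.030) missed the threshold (adjusted p = 0.999). Its 3 SM libraries lay at 341.6 to 348.5 CPM, above DSM by 0.26 (SE 0.030, adjusted p = 1.20e-05).

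Reductases and dehydrogenases that act on aldehydes were examined because the compounds differ in an aldehyde. AKR1C1, an aldo-keto reductase of chromosome 10 (4963415 to 4983283), lay at 31.9, 51.1 and 43.6 CPM in untreated replicates 1 to 3. With DSM it lay at 32.7, 48.1 and 46.6 CPM, within the untreated range, and with SM at 62.0, 111 and 92.8 CPM, above every library of the other groups. Its log2 fold change was 0.01 (SE 0.047, interval -0.08 to 0.11) with DSM and 1.06 (SE 0.045) with SM, a difference of 1.04 (SE 0.045, edgeR adjusted p = 5.92e-13). Its neighbours AKR1C2 and AKR1C3 are close in sequence, so reads may have been shared among them.

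AKR1C2 averaged 9.27 ± 0.992 CPM without and 10.2 ± 0.226 CPM with DSM (SD, n = 3), a log2 fold change of 0.14 (interval -0.01 to 0.29). AKR1C3 had an interval above 0, at 0.01 to 0.18 around 0.09, with DSM libraries at 80.8, 72.1 and 78.7 CPM against 75.9, 71.8 and 69.6 CPM. It did not pass (adjusted p = 0.999), and SM exceeded DSM by 0.46 (SE 0.041, adjusted p = 3.39e-07). AKR1B10 was too low for a tight bound, at 1.43 ± 0.612 against 1.93 ± 0.693 CPM (log2 fold change 0.45, interval -0.02 to 0.93). Among all 25 tested members of the carbonyl reductase and aldehyde dehydrogenase list, 0 were called with DSM, 11 were higher and 14 lower, and 23 lay within the 25% limit. ALDH18A1 and ALDH2, the members with the most counts, both stood at -0.04. ALDH5A1, which oxidises succinic semialdehyde, had the lowest value at -0.16 (SE 0.056, adjusted p = 0.999). With SM 7 of the 25 rose and 0 fell, against 1.21% and 1.52% of all genes.

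HMOX1, whose product heme oxygenase breaks down heme, lay at 40.0, 37.7 and 26.2 CPM in untreated cells and at 37.3, 37.2 and 29.9 CPM with DSM. The groups overlapped (log2 fold change 0.02, SE 0.065), while SM exceeded DSM by 0.79 (SE 0.064, edgeR adjusted p = 1.15e-06). NQO1, a quinone reductase, lay at 1082, 1165 and 1128 CPM without and 1091, 1137 and 1152 CPM with DSM, a log2 fold change of 0.0027 (interval -0.08 to 0.08). SM exceeded DSM for NQO1 by 0.34 (SE 0.039, adjusted p = 9.67e-06). For the thioredoxin reductase gene TXNRD1 the DSM interval was -0.07 to 0.08, for OSGIN1 -0.21 to 0.11 and for ALDH3A1 -0.04 to 0.13. The pathway's own circuit of 10 genes had 0 calls with DSM and all 10 within the 25% limit. In it NFE2L2, which encodes NRF2, stood at 0.02 (interval -0.06 to 0.09), KEAP1 at -0.05 (-0.12 to 0.02), RBX1 lowest at -0.06 and SQSTM1, which encodes the cargo receptor p62, highest at 0.07 (-0.01 to 0.15).

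**Figure D3:**
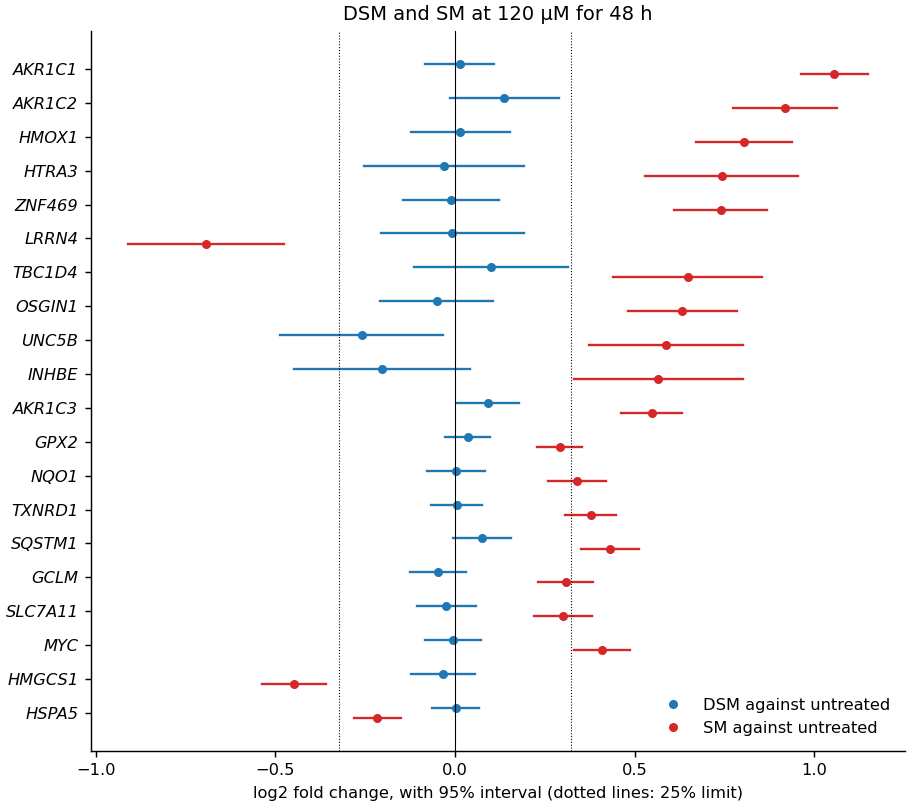
Points are log2 fold changes against untreated with their 95% intervals (lines) for DSM (blue) and SM (red) at 120 µM for 48 h, for 20 genes with a large SM response or a fixed place in the lists. The DSM interval of every gene shown other than UNC5B and AKR1C3 includes 0, and no SM interval does.

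The genes with the largest SM responses were set beside DSM, since the concentration and time were matched. The 10 largest SM changes that passed, in genes whose untreated or SM mean reached 5 CPM and without pseudogenes, had DSM log2 fold changes between -0.26 and 0.14, and 0 of them were called with DSM. All 10 differed between SM and DSM, with adjusted p-values over all 15508 genes of at most 0.00182. The 10 genes were chosen by their SM values, and this contrast uses the same SM libraries, so its p-values add no separate evidence. ZNF469, a zinc finger gene, lay at 10.9, 25.1 and 20.7 CPM without, 11.7, 23.7 and 20.4 CPM with DSM and 16.3, 45.0 and 35.1 CPM with SM. Its log2 fold changes were -0.01 (SE 0.064) and 0.74 (SE 0.062). LRRN4, a leucine-rich repeat gene, was at -0.01 (SE 0.096) with DSM and -0.69 (SE 0.10) with SM.

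UNC5B, a netrin receptor gene, lay on opposite sides of 0 for the compounds. It stood at 2.16, 5.92 and 6.53 CPM without and 2.02, 4.33 and 5.77 CPM with DSM, lower in 3 of 3 pairs (log2 fold change -0.26, SE 0.11), and this did not pass (adjusted p = 0.999). With SM it stood at 2.84, 9.81 and 9.65 CPM, and SM exceeded DSM by 0.85 (SE 0.11, edgeR adjusted p = 2.48e-05). INHBE, an inhibin subunit gene of the integrated stress response, was at -0.20 (SE 0.12) and 0.57 (SE 0.11). Of the others, HTRA3 was at -0.03 with DSM and TBC1D4 at 0.10.

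Without the replicate block the test of SM against DSM called 0 genes, so each call of that contrast rests on the pairing.

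Genes of the integrated stress response, which ATF4 drives toward amino acid synthesis and transport, had 0 of 37 members called with DSM. Of these, 31 had a negative fold change, with a median of -0.041, against 7810 of 15508 and -0.00059 over all genes. The median difference in pairs 1 to 3 was -0.0082, -0.083 and -0.089. Unadjusted p-values under 0.05 were found for 6 lower members, which were SESN2, PHGDH, PSPH, PYCR1, SLC7A5 and CEBPB, and for 0 higher ones, against 2.26% lower and 1.91% higher over all genes. With SM 16 members rose and 0 fell against untreated cells (1.21% and 1.52% of all genes), and 22 were higher with SM than with DSM (1.78% of all genes).

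PHGDH, the first enzyme of serine synthesis, lay at 51.0, 182 and 184 CPM in untreated replicates 1 to 3 and at 50.6, 166 and 160 CPM with DSM. The pairs therefore differed little in replicate 1 and more in replicates 2 and 3, and the fit gave -0.12 (SE 0.035, unadjusted p = 0.00235, adjusted p = 0.999). SLC7A5, a transporter of large neutral amino acids, averaged 991 ± 176 against 923 ± 159 CPM (log2 fold change -0.10, SE 0.032) and was lower with DSM in 3 of 3 pairs. DDIT4, an inhibitor of mTORC1 signalling, lay at 24.1, 82.0 and 73.4 CPM without and 24.5, 66.7 and 58.2 CPM with DSM. Its value of -0.22 (SE 0.14) did not pass, but it passed at -0.31 (adjusted p = 0.00975) when the libraries numbered 1 were left out, the 1 gene to do so. ATF4 itself stood at -0.03 (interval -0.17 to 0.12), DDIT3 at -0.04 (-0.31 to 0.23) and ASNS, asparagine synthetase, at 0.08 (-0.15 to 0.30). The cystine transporter gene SLC7A11 was at -0.02 (-0.11 to 0.06), and NUPR1 was the highest of the list at 0.14. SLC1A5, with the most counts of the list, stood at -0.05.

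The cytosolic aminoacyl-tRNA synthetases, many of them ATF4 targets, had 0 of 20 called, a median of -0.015 and all 20 within the 25% limit, from MARS1 at -0.06 to RARS1 at 0.05. KARS1 and TARS1, with the most counts, stood at -0.02 and 0.01.

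Cholesterol synthesis genes, which SREBP2 drives, were bounded within the 25% limit in all 27 tested members with DSM. None was called, 6 were higher and 21 lower, and the median was -0.028. SM called 20 of them lower and 0 higher (1.52% and 1.21% of all genes), and 20 were lower in SM against DSM (2.13% of all genes). HMGCS1, the synthase before HMG-CoA reductase, lay at 412, 326 and 312 CPM without and 395, 340 and 290 CPM with DSM. Its DSM interval was -0.12 to 0.05, and SM minus DSM was -0.41 on the log2 scale (SE 0.043, edgeR adjusted p = 2.99e-06). MVD, a decarboxylase of the mevalonate pathway, was at -0.03 (SE 0.038). STARD4, a sterol carrier, had the lowest value at -0.10 (SE 0.049, adjusted p = 0.999). FDFT1, which encodes squalene synthase, stood at -0.02. Of 16 fatty acid synthesis genes 0 were called, 8 were higher and 8 lower, and all lay within the 25% limit, with FASN lowest at -0.06 and SCD at 0.0053.

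Genes for the mitochondrial ribosome were examined since SM binds its bacterial relative. All 29 tested proteins of the small subunit lay within the 25% limit, 0 were called, and the median was -0.0041, from MRPS28 at -0.10 to MRPS11 at 0.06. MRPS12, the homologue of the bacterial protein S12 at which streptomycin resistance arises, lay at 70.0, 74.9 and 78.5 CPM without and 69.6, 71.9 and 73.9 CPM with DSM. Its interval was -0.13 to 0.03, and MRPS34 and MRPS2, with the most counts, stood at -0.00097 and 0.0018. Of the small subunit 11 were higher and 18 lower. All 49 large subunit proteins lay within the 25% limit with 0 called, from MRPL12 at -0.08 to MRPL1 at 0.09. Of these, 10 were higher and 39 lower (median -0.029), and the median difference in pairs 1 to 3 was 0.0030, -0.036 and -0.049. The 27 tested mitochondrial transcription and translation factors were 4 higher and 23 lower (median -0.033), and the 17 mitochondrial aminoacyl-tRNA synthetases 5 higher and 12 lower (median -0.028), with 0 called and all within the 25% limit. Nuclear genes of complex I (37 tested) and of complexes II to V (38 tested) had 0 calls and all lay within the 25% limit. Complex I genes were 9 higher and 28 lower and the others 7 higher and 31 lower. Their medians were -0.025 and -0.032, with NDUFB11 at -0.10 and ATP5F1D, a subunit of ATP synthase, at -0.11 as the lowest. In pairs 1 to 3 the median difference was -0.0026, -0.012 and -0.062 for complex I. For complexes II to V it was -0.016, -0.021 and -0.065. In complexes II to V 3 lower and 0 higher members had an unadjusted edgeR p under 0.05, against 2.26% and 1.91% of all genes. Over all tested genes 7698 were higher and 7810 lower. Of the 15 mitochondrial chaperones and proteases 0 were called, and HSPD1 and HSPA9 stood at -0.0049 and -0.0019. Of 13 listed messenger RNAs of the mitochondrial genome itself, 0 were found in the count table, so they were not tested.

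The 4 genes that passed when the 6 libraries were fitted alone were UGDH-AS1, MTRNR2L2, MTRNR2L8 and COPRS. UGDH-AS1, a long non-coding RNA, had the smallest p in the fit of 9 libraries and MTRNR2L2 in that of 6. UGDH-AS1 lay at 59.3, 48.6 and 47.4 CPM in untreated replicates 1 to 3 and at 67.3, 55.0 and 55.3 CPM with DSM. Each DSM library exceeded its own pair, although the groups overlapped. Its log2 fold change was 0.19 (SE 0.038, adjusted p = 0.504) in the fit of 9 libraries and 0.19 (SE 0.032, adjusted p = 0.0167) in that of 6. SM left it at 59.0, 46.3 and 48.3 CPM, with a log2 difference from DSM of -0.21 (SE 0.038, edgeR adjusted p = 0.00175). UGDH-AS1 was named by its small p for DSM, and this contrast uses the same DSM libraries, so its p-value adds no separate evidence.

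UGDH-AS1 starts head to head with UGDH, the NRF2-driven gene of UDP-glucose dehydrogenase, on chromosome 4. UGDH spans 39498755 to 39527439 and UGDH-AS1 39527839 to 39594707, with 399 bases between their starts. UGDH lay at 176, 176 and 162 CPM without, 175, 178 and 160 CPM with DSM (log2 fold change -0.0026, SE 0.032) and 218, 223 and 213 CPM with SM, where it rose by 0.35 (SE 0.032, edgeR adjusted p = 3.06e-07). With DSM the single-gene 95% intervals were -0.07 to 0.06 for UGDH and 0.12 to 0.27 for UGDH-AS1, which was chosen by its small p. Widened to hold for all tested genes jointly, the interval of UGDH-AS1 was -0.04 to 0.42, which includes 0 and the UGDH value. A difference between the neighbours was not tested. Whether counting used strand is not given in the sources used here, and reads near the shared start cannot be assigned with certainty. The 250 bases before the start of UGDH-AS1 (chr4:39527589-39527838, plus strand, GRCh38.p14) are shown because they lie between the 2 genes. They hold 0 matches to the core described above.
UGDH-AS1: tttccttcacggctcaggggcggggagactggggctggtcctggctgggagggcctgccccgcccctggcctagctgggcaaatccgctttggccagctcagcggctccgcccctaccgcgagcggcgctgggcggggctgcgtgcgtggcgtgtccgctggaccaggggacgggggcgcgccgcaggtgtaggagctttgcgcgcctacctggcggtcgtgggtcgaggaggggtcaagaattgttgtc

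MTRNR2L2 and MTRNR2L8 are nuclear genes that resemble the mitochondrial 16S ribosomal RNA, so their counts may include reads of that RNA or of each other. MTRNR2L2 lay at 1669, 1536 and 1398 CPM without and 1903, 1697 and 1603 CPM with DSM, higher in each pair. Its log2 fold change of 0.18 had an SE of 0.065 with all 9 libraries (adjusted p = 0.999), where SM replicates 1 to 3 lay at 1708, 1352 and 1666 CPM, and an SE of 0.024 with 6 (adjusted p = 0.00191). MTRNR2L8 was at 0.14 (SE 0.035) with 9 libraries and 0.14 (SE 0.025, adjusted p = 0.0466) with 6. COPRS, a cofactor of the arginine methyltransferase PRMT5, lay at 43.3, 49.6 and 46.6 CPM without and 38.0, 42.9 and 41.6 CPM with DSM. All 3 of its DSM libraries were below all untreated ones, as in 2.25% of genes, at -0.19 (SE 0.048, adjusted p = 0.999) with 9 libraries and -0.19 (SE 0.035, adjusted p = 0.0466) with 6. MTRNR2L2 and MTRNR2L8 were chosen after their values were seen.

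Other genes with small p in the fit of 9 libraries did not pass. KANTR lay at 84.1, 81.8 and 76.1 CPM without and 95.2, 85.3 and 90.1 CPM with DSM (log2 fold change 0.16, SE 0.039). CRLS1, the cardiolipin synthase of the inner mitochondrial membrane, lay at 60.9, 63.5 and 63.2 against 54.4, 59.2 and 55.6 CPM (-0.15, SE 0.038). The groups of both genes did not overlap. PDXP, FBXL17, ETNK1 and ITPKA stood between -0.12 and -0.21, and the low SNORD24 and BOLA2-SMG1P6 at 1.1 (SE 0.29) and -0.61 (SE 0.16). The adjusted p of each of these 8 genes was 0.999. Over all genes, 684 had groups that did not overlap (4.41%), 335 higher and 349 lower.

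**Figure D4:**
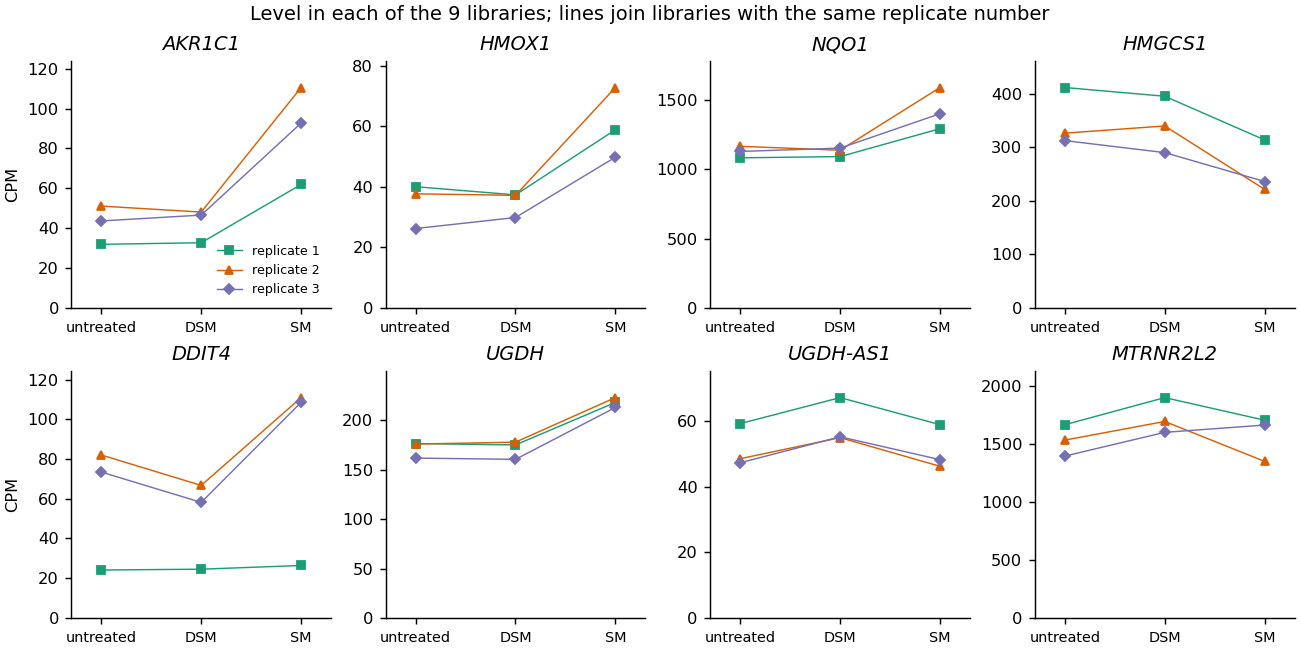
CPM of 8 genes in each of the 9 libraries, with axes from 0 and lines joining libraries of the same replicate number. From untreated to DSM the lines of AKR1C1, HMOX1, NQO1, HMGCS1 and UGDH stay near level, those of UGDH-AS1 and MTRNR2L2 rise in 3 of 3 pairs, and DDIT4 lies far lower in replicate 1 in every group.

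Stress and protein-folding genes were within narrow bounds. In the endoplasmic reticulum list 0 of 26 were called, the median was 0.0026, and HSPA5, the chaperone BiP, stood at 0.0014 (interval -0.06 to 0.07). EDEM1 was lowest at -0.10 and DNAJB9 highest at 0.08. P4HB and CANX, with the most counts, were at -0.04 and -0.01. Of 16 heat shock genes 3 were higher and 13 lower, 0 were called, and all lay within the 25% limit, with HSPA1B lowest at -0.10. Their median difference in pairs 1 to 3 was -0.015, 0.0014 and -0.047. At an unadjusted edgeR p under 0.05 there were 3 lower members (HSPA1B, DNAJB1 and BAG3) and 0 higher, against 2.26% and 1.91% of all genes. HSP90AA1 and HSPA8 stood at 0.01 and -0.02.

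Growth and death genes did not differ by a called amount either. MYC lay at 600, 753 and 706 CPM without and 610, 729 and 708 CPM with DSM (log2 fold change -0.0057, interval -0.08 to 0.07), and SM exceeded DSM by 0.41 (SE 0.038, edgeR adjusted p = 3.40e-07). MKI67, the proliferation marker, was at 0.04 (-0.04 to 0.12). All 26 G2 and mitosis genes, all 30 replication genes and all 29 genes of MYC and ribosome biogenesis lay within the 25% limit with 0 called, as did 76 of 77 cytosolic ribosomal protein genes. Replication genes were 7 higher and 23 lower, with a median of -0.028 and GINS2 lowest at -0.09. Their median difference in pairs 1 to 3 was -0.025, -0.00059 and -0.052. At an unadjusted edgeR p under 0.05 there were 4 lower replication genes (MCM2, TK1, CDT1 and GINS2) and 0 higher, against 2.26% and 1.91% of all genes. Ribosomal protein genes were 18 higher and 59 lower, with a median of -0.026. In pairs 1 to 3 the median of the ribosomal protein genes was 0.0030, -0.0092 and -0.068. Over all tested genes 7698 were higher and 7810 lower. SW620 carries mutant p53, and of 19 p53 targets 0 were called, with CDKN1A at -0.03 (-0.21 to 0.15) and BBC3 lowest at -0.17. Of 23 apoptosis regulators 0 were called and 20 lay within the 25% limit.

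Lysosomal, autophagy and uptake genes were examined for the handling of aminoglycosides. Of 36 lysosome and V-ATPase genes 0 were called, 20 were higher and 16 lower, and the median was 0.0037. LAMP1, a membrane protein of lysosomes, lay at 406, 428 and 408 CPM without and 394, 414 and 427 CPM with DSM (interval -0.08 to 0.06). TFEB, the transcription factor of lysosomal genes, had the highest value at 0.39, but at 0.993 ± 0.249 against 1.29 ± 0.251 CPM its interval was -0.06 to 0.83. CTSL, which encodes cathepsin L, was at 0.31 (0.0043 to 0.62, adjusted p = 0.999). Of 27 autophagy genes 18 were higher and 9 lower, with 0 called and a median of 0.019. LRP2, the aminoglycoside receptor megalin of kidney tubules, had at most 3 counts in any of the 6 libraries and was not tested. Its partner CUBN lay at 1.91 ± 0.759 and 2.11 ± 0.332 CPM (log2 fold change 0.18, interval -0.19 to 0.56).

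Iron, peroxide and ferroptosis genes likewise had 0 calls. Of 34 glutathione and peroxide enzymes 31 lay within the 25% limit, with GSTP1 and PRDX1 at -0.01 and -0.03 and GPX8 lowest at -0.17. GPX4, which reduces lipid peroxides, stood at -0.01 (-0.08 to 0.07) and the transferrin receptor gene TFRC at 0.0086 (-0.11 to 0.12). Of 21 iron genes 18 lay within the 25% limit, and of 18 ferroptosis genes 17. Metallothioneins were less tightly bounded, with MT2A at 0.07 (-0.11 to 0.25) and MT1X at 0.10 (-0.07 to 0.28).

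Stem cell and lineage genes were last. LGR5, the marker of intestinal stem cells, lay at 53.8, 44.4 and 48.2 CPM without and 56.7, 47.0 and 51.8 CPM with DSM. It was higher in 3 of 3 pairs by 0.09 (SE 0.045, interval -0.01 to 0.18) and did not pass (adjusted p = 0.999). PROM1, which encodes the surface marker CD133, stood at 0.01 (-0.10 to 0.13), CD44 at 0.02 (-0.10 to 0.15) and ALDH1A1 at 0.09 (-0.07 to 0.24). Of 16 stem cell markers 13 were higher, 3 lower and 0 called, with a median of 0.013 and medians in pairs 1 to 3 of -0.030, 0.035 and 0.064. Their extremes, ABCG2 at 0.40 and DPP4 at -0.35, were genes below 0.5 CPM. Of 20 Wnt and intestinal stem cell genes 19 lay within the 25% limit. In the TGF-beta and BMP list 5 were higher and 15 lower with 0 called, and 4 lower members had an unadjusted p under 0.05, which were ID1, ID3, BAMBI and TGFBR1, against 2.26% of all genes. ID1, an inhibitor of differentiation that BMP signals induce, lay at 22.1, 23.9 and 23.1 CPM without and 21.7, 21.6 and 20.4 CPM with DSM (log2 fold change -0.12, SE 0.053). Its DSM libraries were all below the untreated ones, as in 2.25% of genes, and the DSM difference did not pass (edgeR adjusted p = 0.999). With SM the value of ID1 was -0.22 (SE 0.054, edgeR adjusted p = 0.0227).

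**Figure D5:**
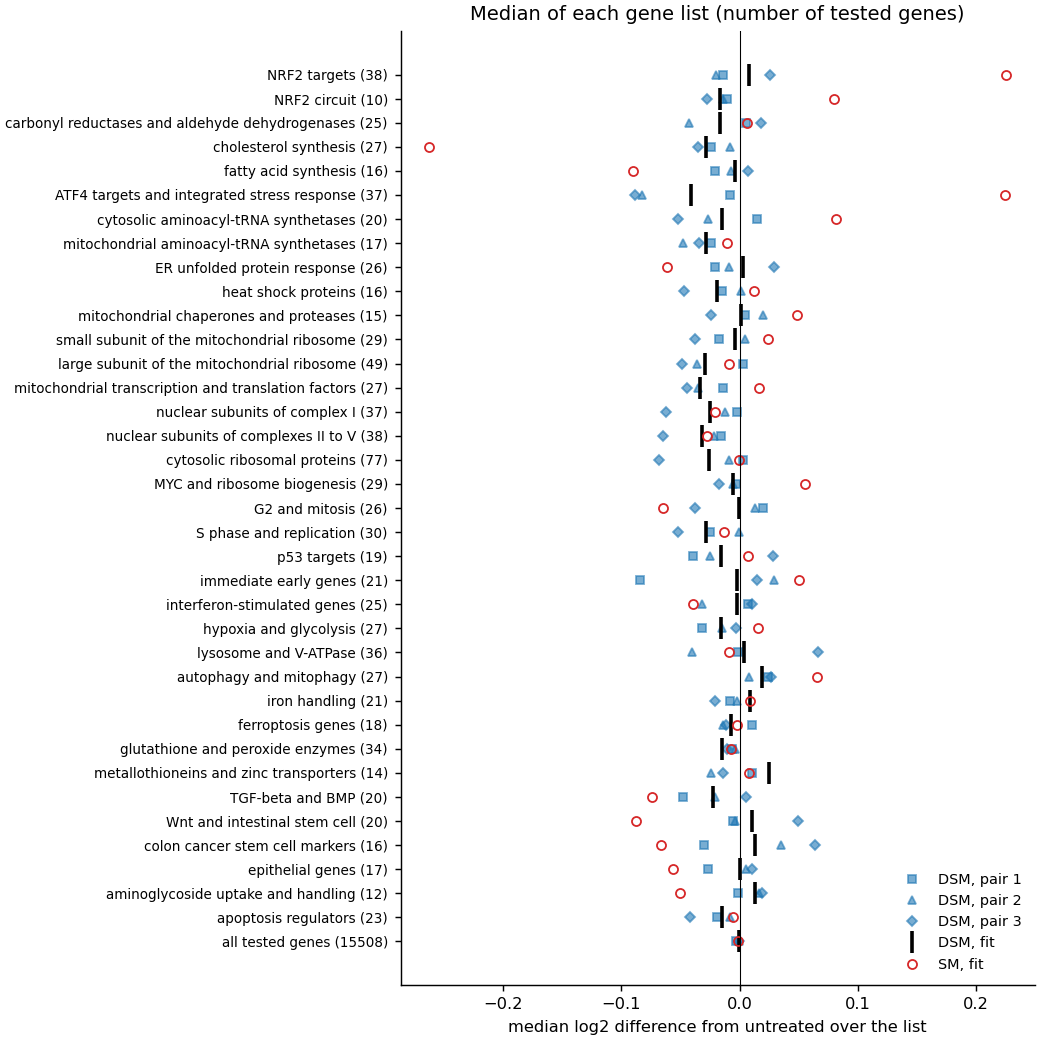
For each list of at least 10 tested genes, the median log2 difference from untreated is shown for DSM in pairs 1 to 3 (blue symbols) and for the DSM (black bar) and SM (red circle) values of the fit. DSM medians of the fit lie between -0.041 (ATF4 targets) and 0.025 (metallothioneins and zinc transporters), and SM medians between -0.26 (cholesterol synthesis) and 0.23 (NRF2 targets).

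Of the other lists, immediate early genes (21 tested), interferon-stimulated genes (25), hypoxia and glycolysis genes (27) and epithelial genes (17) also had 0 calls, with 20, 15, 25 and 12 members within the 25% limit.

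Over all lists together, 912 genes were tested, of which 0 were called with DSM, 839 lay within the 25% limit and 883 within 1.5-fold. At an unadjusted p under 0.05 there were 10 higher and 41 lower, against 1.91% and 2.26% of all tested genes. The lists were not matched to all genes by level. Over all tested genes the median DSM log2 fold change was 0.047 under 1 CPM and -0.0082 at 100 CPM or more. The part of level in the list counts and medians was not tested.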

How the data were processed

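The members and gene lists were chosen with earlier results of these data known. Poly(A) RNA libraries of 9 cultures came from a NuGEN kit (Universal Plus mRNA-seq), per the labels' protocols. The submitters' processing notes name hg38 as the build and, among tools, featureCounts 2.0.0, TopHat2 2.1.1, cutadapt 3.4 and DESeq2 1.26.0. How counting treated strand and multi-mapping reads, and its annotation, is not given in the sources used here. The values tested are the deposited whole-number counts per gene, which the authors left without normalization. A deposited normalized table was not used.

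The test was that of edgeR 4.0.16 in R 4.3.3 (TMM scaling, robust quasi-likelihood F test, two-sided, Benjamini-Hochberg at 0.05), all 9 libraries in 1 fit with group and replicate number as terms. Standard errors and 95% intervals came from the moderated dispersion of that fit. They were tested on counts simulated without an SM effect, so spread that the SM libraries add to single genes was not covered. Log2 CPM of pairs used a prior count of 2. The pairing follows the labels' numbers: deviations from the group means correlated at 0.744 to 0.902 between same-numbered untreated and DSM libraries, and at -0.730 to 0.269 otherwise. Between replicates of the untreated and of the DSM group, chi-square over its degrees of freedom was 6.92 to 35.3, so none was counted as a duplicate. RefSeq GRCh38.p14 records matched 15302 tested genes. Named genes are the 10 with the smallest p, 37 fixed genes of which 36 were tested, the 10 largest SM responses, the 5 with most counts, the 5 widest intervals, and of each described list the members with most counts and the extremes. Others were named after their values were seen, among them members with an unadjusted p under 0.05 or well-known roles. Alternatives were other scalings, filters and tools (DESeq2 1.42.0, limma 3.58.1), no replicate block, 6 libraries, and leaving out libraries. Some genes that these rules name are not reported here.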

Additional observations from a re-analysis of the deposited data

How the results depend on the processing

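The count of 0 called genes for DSM held under DESeq2 and voom, both other scalings, the stricter filter and no robust estimation. It also held with any 1 untreated or DSM library left out (range 0 to 0), and single SM libraries were not left out. Among these fits the smallest edgeR adjusted p was 0.0589, without DSM replicate 1. With no replicate block the count was also 0, with 103 genes at an unadjusted p under 0.05, and 11486 genes lay within 1.5-fold. It was 4 with only the 6 libraries fitted, 1 with the libraries numbered 1 left out (DDIT4), and 6 with no filter on low counts. Those 6 were UGDH-AS1, MTRNR2L2, ASS1, TMEM47, DDIT4 and POLR2J3; the cause was not tested. SM against DSM fell from 606 called genes to 0 with no replicate block, where the replicate differences enter the spread. Genes bounded within 1.5-fold numbered 12026 to 12087 with 1 untreated or DSM library left out. They numbered at least 9636 under every alternative, that lowest count with Bonferroni-wide intervals. Low counts limit the bound below 1 CPM.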
